A study of Homo sapiens with 4 samples.

Results

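The genes described here are 60 human genes of mitosis, the set listed by symbol that serves mitotic entry, the kinetochore, the spindle and cell division, with TOP2A among them, out of 60656 features counted in each library. They were chosen by name and role, with earlier results of these data known. Of these, 59 passed the filter on low counts and were tested, beside 19103 tested features in all. Of the 60, 5 lie on chromosome 20 (AURKA, UBE2C, TPX2, MYBL2 and CDC25B) and are kept apart throughout, because the genes of that chromosome were lower as a whole in the DKO libraries.

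The assay was TTchem-seq, which labels newly made RNA with a short pulse of 4-thiouridine and sequences the labelled fragments, and the cells were HCT116, derived from a human colorectal carcinoma. The DKO group (2 libraries) is the HCT116 TOP2A mAID/TOP2B -/- line given 500 µM auxin (indole-3-acetic acid) for 8 h. In that line both endogenous TOP2A copies carry the mAID degron, a tag that lets auxin trigger destruction of the protein, and TOP2B is knocked out with CRISPR/Cas9. The labels give its genotype as a double knockout, while the design text describes removal of TOP2A protein through the tag, so TOP2A RNA is still made. The WT group (2 libraries) is labelled wildtype, and the only other line that the treatment text names is HCT116 TOP2A mAID with TOP2B intact. For WT the labels record no auxin. Palbociclib, which blocks the G1 kinases CDK4 and CDK6, was given to both groups at 2 µM for 28 h to stop them in G1, and 4-thiouridine at 1 mM labelled the RNA of the last 30 min. Loss of the enzymes, auxin and any difference between the cell lines therefore cannot be told apart, and no library of cycling cells was analysed here, so the degree of the G1 arrest cannot be set against a reference.

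Many genes of mitosis, though not all, are transcribed mainly in G2 and M phase. In G1 and in resting cells their promoters are held down by the DREAM complex, whose MuvB core binds a short element called the CHR near the transcription start. In G2 the same core works with the transcription factors B-MYB (MYBL2) and FOXM1 to switch the genes on, usually together with NF-Y at CCAAT boxes further upstream. TOP2A, the topoisomerase that untangles sister chromatids before anaphase, is regulated as one of these genes.

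In the DKO libraries the mitotic genes off chromosome 20 were mostly a little higher than in WT. Of 54 tested, 31 rose and 3 fell at an adjusted p under 0.05, where 20.8% of the 12818 tested protein-coding genes off chromosome 20 were called higher and 23.4% lower. The shares for the mitotic genes were 57.4% higher and 5.56% lower. Their median log2 fold change (DKO over WT, as everywhere below) was 0.14, against -0.02 for those protein-coding genes, and the quartiles of the mitotic genes lay at 0.09 and 0.22. CDC25C rose by far the most, to 2.05-fold, followed by PTTG1, CENPE, TOP2A, HMMR, CENPF, CCNB2 and ASPM at 1.28- to 1.34-fold. The 3 genes that fell were SPC24, CENPK and KIF18B. All 5 chromosome 20 genes were lower, where 86.1% of 360 tested protein-coding genes of that chromosome were called lower and 2.5% higher.

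**Figure D1:**
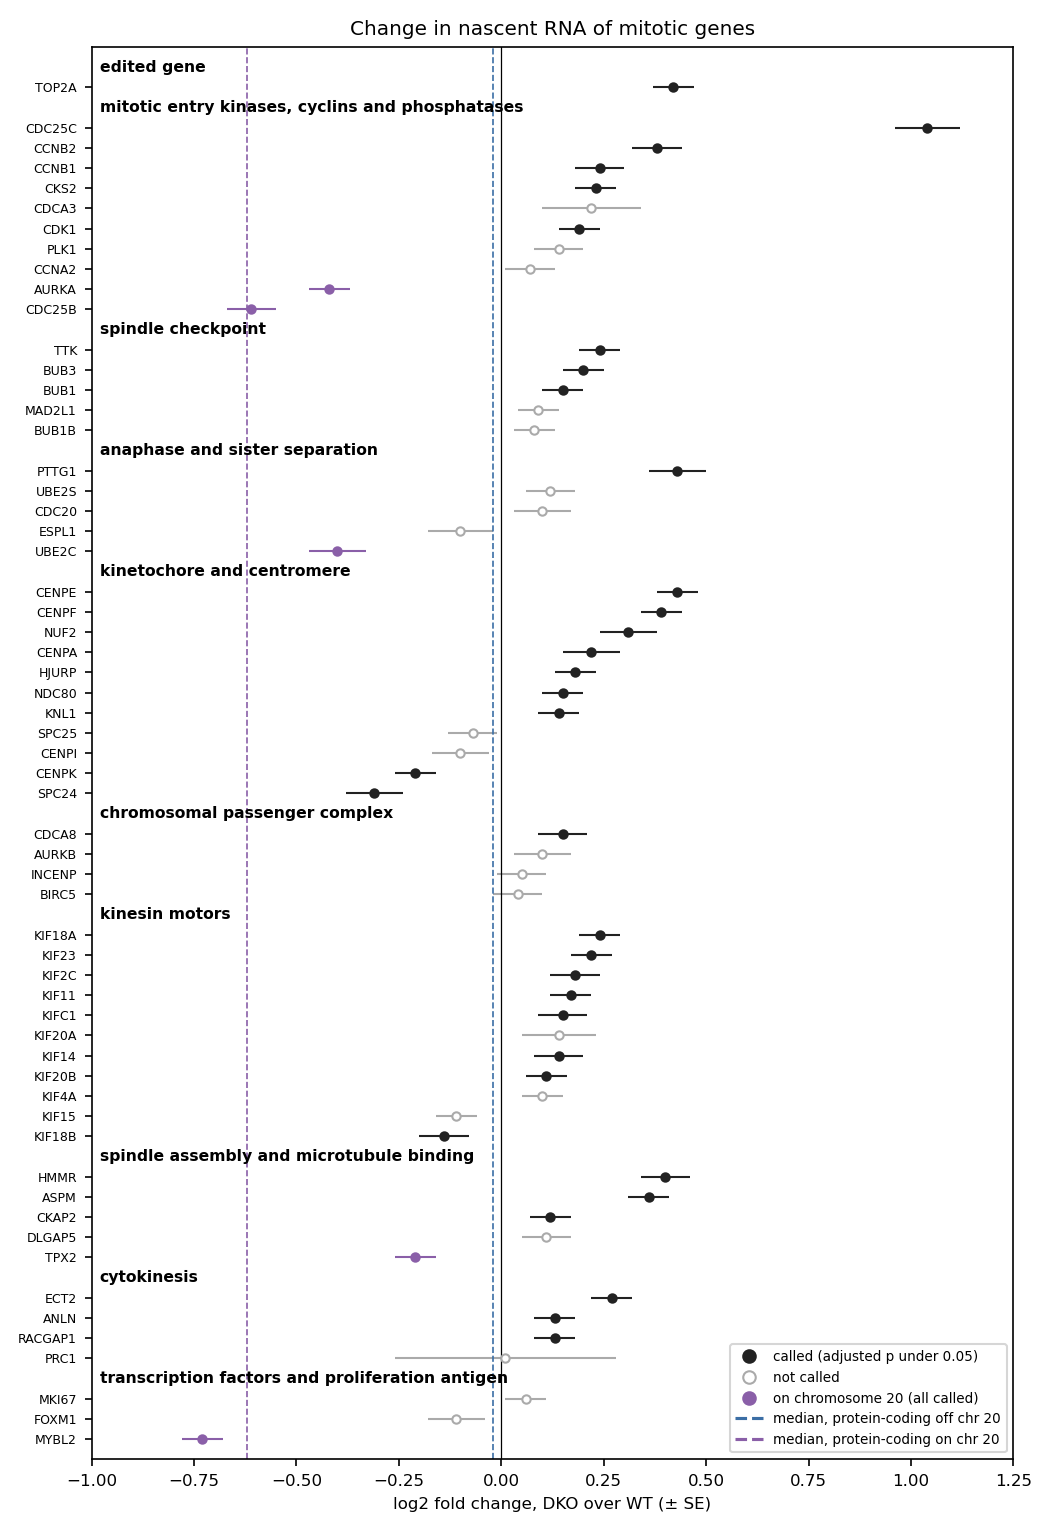
Log2 fold change in nascent RNA, DKO over WT, for each of the 59 tested mitotic genes, grouped by role, with bars for the standard error. Filled points passed the test and dashed lines mark the medians of protein-coding genes off chromosome 20 (-0.02) and on it (-0.62). CDC25C stands at 1.04, most others between 0 and 0.43, and the 5 chromosome 20 genes between -0.73 and -0.21.

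The libraries were alike in depth, with 51142867 to 53777749 counted reads, and the 60 genes together drew 0.403% and 0.401% of the DKO reads, against 0.371% and 0.373% of the WT reads. Values are CPM (read counts scaled by the TMM-corrected library size), given as mean ± SD with n = 2. Errors on log2 fold changes are standard errors derived from the edgeR F statistic, which shares the spread between replicates over genes, and adjusted p-values are Benjamini-Hochberg values of the edgeR quasi-likelihood test over all tested features. Separate cultures are not recorded for the replicates, so p-values measure the spread between these libraries, which may be technical. Of 10 markers of gut epithelium, none was at 0 and their summed level was 448 and 428 CPM in DKO, against 507 and 472 CPM in WT. EPCAM had 3590 to 3883 reads a library, KRT8 7000 to 8623 and CDX2 548 to 694. ELF3 had 89 to 162, CLDN7 70 to 109, LGALS4 10 to 15 and VIL1 4 to 11. Of 9 gut markers tested, 5 were lower in DKO and none higher (KRT8 -0.21, KRT18 -0.19, CDH1 -0.37, ELF3 -0.63 and CLDN7 -0.44 on the log2 scale), and the part of this in the changes of the mitotic genes was not tested. Markers of fibroblasts (6 of 7), immune cells (6 of 6) and endothelium (2 of 4) stayed under 10 reads in every library, and COL1A2, LUM and PDGFRA of the fibroblast list were at 0. The exceptions were COL1A1 with 158 to 192 reads a library, more than CLDN7, and the endothelial VWF with 41 to 47 and PECAM1 with 15 to 18. Summed levels were 3.19 and 3.64 CPM in DKO and 3.6 and 3.91 CPM in WT for the fibroblast list, 0.17 and 0.167 CPM in DKO and 0.155 and 0.176 CPM in WT for the immune list, and 1.19 and 1.3 CPM in DKO and 1.43 and 1.41 CPM in WT for the endothelial list.

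Many of the smaller calls depended on the libraries kept, on the filter and on the test. Of the 39 called mitotic genes, 12 passed the threshold in each of the 14 alternative settings that could be run for them: TOP2A, CCNB2, CDC25C, PTTG1, CENPE, CENPF, HMMR and ASPM among the rises, and CDC25B, AURKA, UBE2C and MYBL2, all on chromosome 20, among the falls. The other 27 missed it without WT replicate 1 (adjusted p of 0.055 to 0.335), and all of these except NUF2, SPC24, KIF23 and ECT2 also missed it without WT replicate 2 (0.0502 to 0.294). Without DKO replicate 1, calls were lost for CDCA8, RACGAP1, KIF14, KIF18B, KIFC1, NDC80, CENPA and CKAP2 (0.0541 to 0.323). Without DKO replicate 2, they were lost for CDCA8, RACGAP1, KIF14, KIF18B, KIF20B, KIFC1, KNL1, CKAP2 and BUB1 (0.0578 to 0.161). Only 8 mitotic genes were called higher once WT replicate 1 was dropped and 11 once WT replicate 2 was, when the shares of protein-coding genes off chromosome 20 called higher were also smaller, at 6.3% and 8.94%. With no filter beyond 1 read, 20 of the 39 calls were lost (adjusted p of 0.0586 to 0.218). With the DESeq2 Wald test 9 were lost, those of KNL1, CENPA, CDCA8, KIF14, KIF18B, KIF20B, KIFC1, CKAP2 and RACGAP1 (0.0562 to 0.159). With total counts 4 were lost, those of KIF14, KIFC1, CKAP2 and RACGAP1 (0.0525 to 0.0614). These and the call of KIF20B were also lost without chromosome 20 genes (0.0518 to 0.0559). None of the 39 changed direction in any alternative. In 49 of the 54 genes off chromosome 20 (90.7%) DKO and WT values did not overlap, in either direction, while this held for 71% of protein-coding genes off that chromosome. Of these 49, 42 had both DKO libraries above both WT libraries.

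The promoters of these genes were examined for the elements named above. RefSeq promoter windows (GRCh38.p14) of 300 bases, from 250 before to 50 after a start of the gene, were matched by symbol for 51 of the 60 genes. They were searched on both strands for the CHR core TTTGAA, for the variant CHR core TTTAAA and for the CCAAT box. TTTGAA was found for 36 of 51 mitotic genes (70.6%), against 15.8% of 15843 protein-coding genes in the table. CCAAT was found for 41 of 51 (80.4%, against 42.1%), and 2 or more copies for 27 of 51 (52.9%, against 14.8%). TTTAAA was found for 15 of 51 (29.4%, against 12.8%). One window held TTTGAA together with CCAAT for 31 of 51 genes (60.8%, against 6.59%). Where a gene has several windows, any of them counted, for the mitotic genes and the background alike. In 2 cases matches to different motifs overlapped. These are matches of letters, not sites shown to be bound.

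**Figure D2:**
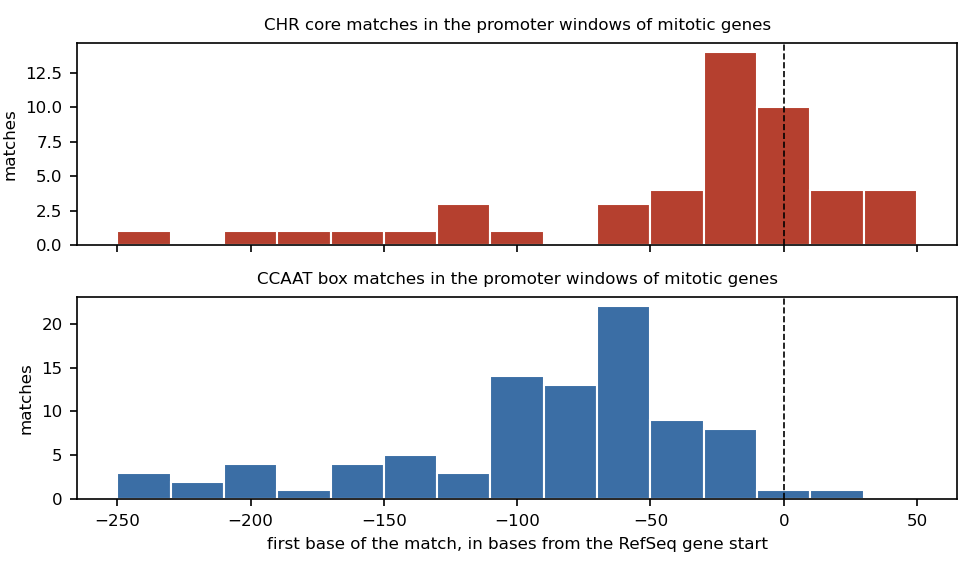
Position of each CHR core match (top) and CCAAT match (bottom) in the promoter windows of the 51 mitotic genes found in RefSeq, in bases from the start used for the window (dashed line), taking the window with the most matches for each gene. Of 48 CHR core matches, 36 began no further upstream than 50 bases before the start, and of 90 CCAAT matches, 59 began 100 to 20 bases before it.

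The windows of TOP2A, of the mitotic gene that rose most, of the mitotic gene off chromosome 20 that fell most, and of the one on chromosome 20 that fell most are shown so that these elements can be seen in place. Each is 5′ to 3′ on the gene's strand, with the start after base 250 and capitals on every match (ATTGG and TTCAAA are CCAAT and TTTGAA on the opposite strand). TOP2A is at chr17:40417847-40418146 (minus strand), CDC25C at chr5:138331828-138332127 (minus strand, 1 of 4 windows in the table, the one with the most matches), SPC24 at chr19:11155733-11156032 (minus strand) and MYBL2 at chr20:43666864-43667163 (plus strand). The CDC25C window lies inside the span of the gene, whose upstream end is at 138338355, so it is built on an internal start.
TOP2A: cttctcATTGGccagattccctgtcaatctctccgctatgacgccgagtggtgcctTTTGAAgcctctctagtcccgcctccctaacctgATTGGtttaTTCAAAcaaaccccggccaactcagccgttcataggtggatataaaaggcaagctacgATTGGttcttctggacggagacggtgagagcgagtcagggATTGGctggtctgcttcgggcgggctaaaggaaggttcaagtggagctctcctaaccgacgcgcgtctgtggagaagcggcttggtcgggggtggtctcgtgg
CDC25C: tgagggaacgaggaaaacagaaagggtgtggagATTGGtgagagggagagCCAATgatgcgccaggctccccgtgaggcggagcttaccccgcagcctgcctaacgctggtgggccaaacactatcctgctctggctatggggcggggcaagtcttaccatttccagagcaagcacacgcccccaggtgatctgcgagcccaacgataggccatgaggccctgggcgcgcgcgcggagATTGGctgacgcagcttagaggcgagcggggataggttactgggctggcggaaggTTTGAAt
SPC24: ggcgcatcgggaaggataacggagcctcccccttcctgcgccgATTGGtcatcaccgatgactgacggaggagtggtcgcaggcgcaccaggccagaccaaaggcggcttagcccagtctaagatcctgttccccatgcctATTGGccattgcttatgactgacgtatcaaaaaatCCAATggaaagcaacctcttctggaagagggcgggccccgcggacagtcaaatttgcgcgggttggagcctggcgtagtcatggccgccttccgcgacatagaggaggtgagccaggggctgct
MYBL2: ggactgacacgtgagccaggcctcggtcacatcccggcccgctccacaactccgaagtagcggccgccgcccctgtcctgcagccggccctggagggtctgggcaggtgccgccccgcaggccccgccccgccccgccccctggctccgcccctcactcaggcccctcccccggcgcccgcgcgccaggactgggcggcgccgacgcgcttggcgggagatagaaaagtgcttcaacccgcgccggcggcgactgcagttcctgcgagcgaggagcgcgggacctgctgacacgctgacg
The TOP2A window holds 4 CCAAT matches and 2 of TTTGAA, that of CDC25C 3 CCAAT matches and 1 TTTGAA at its downstream end, that of SPC24 3 CCAAT matches and no TTTGAA, and that of MYBL2 none of these letters. The TTTGAA matches of TOP2A begin at -194 and -151 bases from the start, and its CCAAT matches at -244, -160, -93 and -53. Both TTTGAA matches thus lie outside the stretch from 50 bases before the start onward, which holds 36 of the 48 CHR core matches.

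The change of the mitotic genes was also set beside these letters, with no test, and the splits share genes and libraries. Among mitotic genes off chromosome 20 with a window and a test, the 35 with TTTGAA had a median log2 fold change of 0.15 with 21 higher and 1 lower, and the 13 without it 0.12 with 6 higher and 2 lower. The 13 with TTTAAA had a median of 0.22 with 11 higher and none lower, and the 35 without it 0.11 with 16 higher and 3 lower. With either core there were 40 genes (median 0.16, 25 higher and 1 lower), and with neither 8 genes (median 0.08, 2 higher and 2 lower). The splits by TTTAAA and by either core were added after the values were seen. The 39 with CCAAT had a median of 0.15 with 21 higher and 3 lower, and the 9 without it 0.13 with 6 higher and none lower. The 26 with 2 or more CCAAT copies had a median of 0.16 with 17 higher and 3 lower, and the 22 with fewer 0.12 with 10 higher and none lower. Of the 3 genes that fell, KIF18B has TTTGAA, and SPC24 and CENPK do not.

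TOP2A, the gene edited in the DKO cells, lies on chromosome 17 from 40388525 to 40417896 (RefSeq, GRCh38.p14). It had 8770 and 8955 reads in DKO, against 6519 and 6246 in WT, or 165 and 168 CPM against 126 and 122 CPM. Both DKO libraries stood above both WT libraries, and the means were 166 ± 2.26 CPM in DKO and 124 ± 2.43 CPM in WT. The log2 fold change was 0.42 ± 0.05 (adjusted p = 3.46e-15), a 1.34-fold rise. It was between 0.4 and 0.46 in all 14 alternatives. TOP2B, the other gene edited in these cells, was not called (0.07 ± 0.05, adjusted p = 0.223), with 7852 and 8000 reads in DKO and 7264 and 7303 in WT. The position of its deletion is not given in the sources used here, so neither count checks the genotype. The change exceeded that of 90.4% of protein-coding genes off chromosome 20. Among the 59 mitotic genes TOP2A ranked 4 by rise, behind CDC25C, PTTG1 and CENPE and just ahead of HMMR and CENPF. Its distance from PTTG1, CENPE, HMMR, CENPF and CCNB2 was smaller than the standard errors, so its place among these is not resolved. ASPM (0.36 ± 0.05) was not clearly apart from it either, while CDC25C stood clear of all of them.

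**Figure D3:**
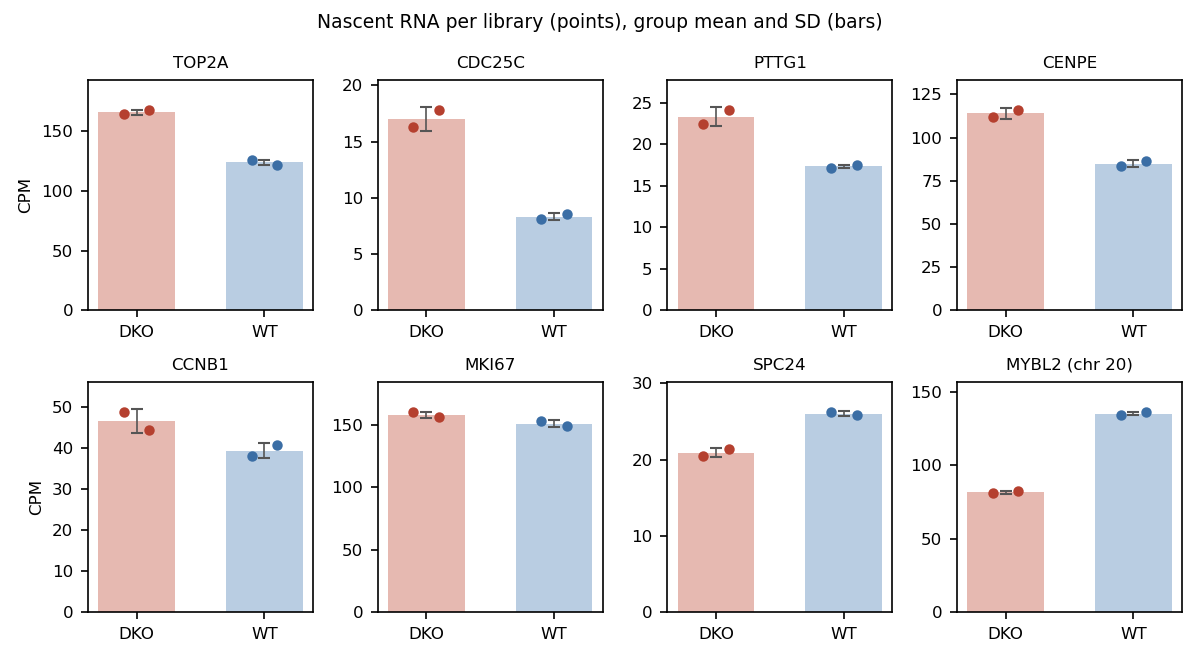
CPM in each library (points), with the group mean and SD (bars), for 8 mitotic genes, DKO left of WT. TOP2A, CDC25C, PTTG1, CENPE, CCNB1 and MKI67 were higher in both DKO libraries than in both WT libraries, though MKI67 was not called. SPC24 and MYBL2 were lower in DKO.

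Among the kinases, cyclins and phosphatases of mitotic entry, 5 of the 8 genes off chromosome 20 rose and none fell. For this and the role counts below, 20.8% of protein-coding genes off chromosome 20 were called higher and 23.4% lower. CDC25C, a phosphatase that activates CDK1 at the onset of mitosis, had 16.3 and 17.8 CPM in DKO, against 8.08 and 8.52 CPM in WT (868 and 947 reads against 419 and 435). The DKO libraries were thus well above the WT libraries, with a log2 fold change of 1.04 ± 0.08 (adjusted p = 1.78e-24), and the other rises of this set were at most 1.34-fold. CDC25C spans 53.1 kb of chromosome 5, from 138285265 to 138338355. RefSeq places the ends of FAM53C (799 shared bases) and of the non-coding LOC100128966 (5042 shared bases) over it. FAM53C did not pass the test, at 34.6 and 35.2 CPM in DKO and 36.2 and 36.2 CPM in WT (log2 fold change -0.05, adjusted p = 0.488).

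CCNB2, a B-type cyclin of CDK1, had 29.2 and 30.4 CPM in DKO, against 22.4 and 23.4 CPM in WT, a rise of 0.38 ± 0.06 on the log2 scale (adjusted p = 1.8e-07). CCNB1, the main cyclin of mitotic CDK1, had 48.6 and 44.4 CPM in DKO, against 38 and 40.7 CPM in WT (0.24 ± 0.06, adjusted p = 0.000148). Both DKO libraries were above both WT libraries for each cyclin. CKS2, a small CDK-binding subunit, rose by 0.23 ± 0.05 (adjusted p = 5.41e-05) and CDK1 itself by 0.19 ± 0.05, with 123 and 115 CPM in DKO and 101 and 107 CPM in WT (adjusted p = 0.000398). PLK1, the polo-like kinase of mitosis, stood at 30.3 and 30 CPM in DKO and 27.4 and 27.2 CPM in WT. Its log2 fold change of 0.14 (adjusted p = 0.0571) missed the threshold here and passed it in 4 alternatives, among them DESeq2 size factors (0.0413). CCNA2, the cyclin of S and G2 phase, had 35.3 and 33.5 CPM in DKO and 32.9 and 32.7 CPM in WT (0.07, adjusted p = 0.373). CDCA3, which promotes mitotic entry, was thinly covered, with 204 and 244 reads in DKO and 195 and 177 in WT (0.22, adjusted p = 0.153).

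The spindle checkpoint genes, whose products delay anaphase until every chromosome is attached, leaned one way by small amounts, with 3 of 5 higher and none lower. TTK (MPS1), the kinase that starts checkpoint signalling, had 100 and 104 CPM in DKO, against 86.7 and 86.5 CPM in WT (0.24 ± 0.05, adjusted p = 9.7e-06). BUB3 rose by 0.2 ± 0.05 (adjusted p = 0.00014) and the kinase gene BUB1 by 0.15 ± 0.05 (adjusted p = 0.0154). BUB1B (BUBR1) had 114 and 118 CPM in DKO and 110 in each WT library (0.08, adjusted p = 0.149), and MAD2L1 (MAD2) had a log2 fold change of 0.09 (adjusted p = 0.158). With upper quartile factors BUB1B and MAD2L1 passed as well (0.0435 and 0.0437).

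Of the 4 anaphase genes off chromosome 20, 1 rose and none fell, a share (25%) near the 20.8% of protein-coding genes called higher. PTTG1, which encodes securin, the inhibitor of separase, had 22.4 and 24.1 CPM in DKO, against 17.1 and 17.5 CPM in WT, a rise of 0.43 ± 0.07 (adjusted p = 5.84e-08). The DKO libraries stood apart from WT, but PTTG1 has near-identical intronless relatives that may share its reads. ESPL1, which encodes separase itself, had 14.7 and 14.9 CPM in DKO and 17.2 and 14.4 CPM in WT. Its groups overlapped and it was not called (-0.1, adjusted p = 0.327). CDC20, the activator of the anaphase-promoting complex, was at 0.1 (adjusted p = 0.247), with 22.7 and 22.8 CPM in DKO and 22.3 and 20.1 CPM in WT. UBE2S, which extends ubiquitin chains for that complex, was at 0.12 (adjusted p = 0.0832). It shares 3598 bases of its span with RPL28 (-0.05, adjusted p = 0.509), so reads of the pair may be exchanged, and it passed the test without DKO replicate 2 (0.0265).

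Of 11 kinetochore and centromere genes, 7 were higher (63.6%) and 2 lower (18.2%, against 23.4% of protein-coding genes off chromosome 20). CENPE, the motor that brings chromosomes to the spindle equator, had 112 and 116 CPM in DKO, against 83.6 and 86.2 CPM in WT (0.43 ± 0.05, adjusted p = 5.67e-15). CENPF, a large protein of the outer kinetochore, had 108 and 110 CPM in DKO, against 85.1 and 80.6 CPM in WT (0.39 ± 0.05, adjusted p = 4.65e-13). Both genes stood well clear of WT in each DKO library. The other rises were smaller, with CENPA, the centromeric histone H3, at 0.22 ± 0.07, its chaperone HJURP at 0.18 ± 0.05, and KNL1, the scaffold that recruits the checkpoint proteins, at 0.14 ± 0.05.

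The 4 subunits of the NDC80 complex, which grips microtubules, were not all called in 1 direction. NUF2 rose by 0.31 ± 0.07, with 28.2 and 25.7 CPM in DKO and 21 and 22.5 CPM in WT (adjusted p = 4.17e-05), and its partner NDC80 by 0.15 ± 0.05 (adjusted p = 0.0135). SPC25, of the opposite end of the complex, was at -0.07 (adjusted p = 0.358). SPC24, the partner of SPC25, fell to 20.5 and 21.4 CPM in DKO, against 26.2 and 25.8 CPM in WT (-0.31 ± 0.07, adjusted p = 3.51e-05). No DKO library of SPC24 reached the WT range, and this was the largest fall among the 54 mitotic genes off chromosome 20. Of the inner kinetochore proteins, CENPK had 55.4 and 59.1 CPM in DKO, against 63.2 and 69 CPM in WT (-0.21 ± 0.05, adjusted p = 0.000436), and its neighbour in the same complex, CENPI, was at -0.1 (adjusted p = 0.257). Whether these genes differ from one another was not tested.

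Of the chromosomal passenger complex, which corrects faulty attachments and guides cytokinesis, only CDCA8 (borealin) was called, at 41.5 CPM in each DKO library and 36.7 and 38.1 CPM in WT (0.15 ± 0.06, adjusted p = 0.0274). The kinase gene AURKB (0.1, adjusted p = 0.287), the scaffold gene INCENP (0.05, adjusted p = 0.482) and BIRC5, which encodes survivin (0.04, adjusted p = 0.615), were not. BIRC5 had 41.1 and 38.2 CPM in DKO and 38 and 39.1 CPM in WT, and the groups overlapped. The 1 call among 4 tested genes is a share (25%) near the 20.8% of protein-coding genes off chromosome 20 called higher.

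Kinesin motor genes rose in 7 of 11 cases and fell in 1, and the largest rise was 1.18-fold. KIF18A, which dampens chromosome movement at microtubule plus ends, was the best counted, with 18385 and 19293 reads in DKO and 15440 and 15340 in WT. Its levels were 345 and 362 CPM in DKO, against 298 and 300 CPM in WT (0.24 ± 0.05, adjusted p = 1.06e-05). KIF23 (MKLP1), a motor of the central spindle, had 90.8 and 91.9 CPM in DKO and 78.1 and 79 CPM in WT (0.22 ± 0.05, adjusted p = 6.99e-05). KIF2C (MCAK), a microtubule depolymerase, rose by 0.18 ± 0.06 and KIF11 (Eg5), which pushes the spindle poles apart, by 0.17 ± 0.05, and neither had overlapping groups. KIFC1 (0.15, adjusted p = 0.0408), KIF14 (0.14, adjusted p = 0.0432) and KIF20B (0.11, adjusted p = 0.04) were called close to the threshold. The calls of KIFC1 and KIF14 were each lost in 9 of 14 alternatives, and that of KIF20B in 6. KIF20A (MKLP2, 0.14, adjusted p = 0.19) and KIF4A (0.1, adjusted p = 0.083), which has an intronless near-copy, were not called. Against these, KIF18B fell to 35.3 and 35.9 CPM in DKO, against 38.1 and 40.3 CPM in WT (-0.14 ± 0.06, adjusted p = 0.0409), a call that was lost in 10 of 14 alternatives. KIF15, which can stand in for KIF11, had 64.2 and 67.4 CPM in DKO and 70.4 and 71.8 CPM in WT (-0.11, adjusted p = 0.0634) and was called without DKO replicate 2 (0.032).

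Of the proteins that build the spindle, HMMR, which binds microtubules and focuses the poles, had 36.3 and 35.5 CPM in DKO, against 27.7 and 26.7 CPM in WT (0.4 ± 0.06, adjusted p = 5.15e-09). ASPM, a spindle pole protein, had 93.2 and 92.5 CPM in DKO, against 72.1 and 72.7 CPM in WT (0.36 ± 0.05, adjusted p = 6.85e-11). For each, the replicates agreed to within a few percent while the groups stood far apart. CKAP2 rose by 0.12 ± 0.05 (adjusted p = 0.0393), a call that was lost in 8 of 14 alternatives. DLGAP5 (HURP) had 39.8 and 41.6 CPM in DKO and 35.7 and 39.9 CPM in WT (0.11, adjusted p = 0.122). NUSAP1 could not be assessed, with 0 and 2 reads in DKO and 0 and 4 in WT. Such a count cannot be read as an untranscribed gene, because MAD1L1, KIF2A and SPAG5, which dividing cells use, also had 0 reads in every library. How reads that fall on more than 1 gene model were counted is not given in the sources used here.

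The genes of cytokinesis rose in 3 of 4 cases. ECT2, the exchange factor that activates RhoA at the cell equator, had 209 and 213 CPM in DKO, against 174 and 177 CPM in WT (0.27 ± 0.05, adjusted p = 3.19e-07). ANLN (anillin) rose by 0.13 ± 0.05 (adjusted p = 0.0144) and RACGAP1, the partner of KIF23, by 0.13 ± 0.05 (adjusted p = 0.0385). The call of RACGAP1 was lost in 8 of 14 alternatives. PRC1, which bundles the midzone microtubules, had only 38 and 31 reads in DKO and 33 and 33 in WT, with a standard error of 0.27. The antisense gene PRC1-AS1 covers 22256 bases of its span, and the value says nothing of the gene's change.

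Neither of the transcription factors that drive these genes in G2 was called higher. FOXM1 had 18.6 CPM in each DKO library and 20.7 and 19.5 CPM in WT (-0.11 ± 0.07, adjusted p = 0.213). MYBL2, on chromosome 20, fell to 80.9 and 82.2 CPM in DKO, against 134 and 136 CPM in WT, 1.66-fold lower in DKO (-0.73 ± 0.05, adjusted p = 8.41e-34). MKI67, which encodes the proliferation antigen Ki-67, had 160 and 156 CPM in DKO and 153 and 149 CPM in WT (0.06 ± 0.05, adjusted p = 0.277).

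The other chromosome 20 genes were read against their own chromosome, whose tested protein-coding genes had a median log2 fold change of -0.62 with quartiles at -0.77 and -0.44. All genes of chromosome 20 together drew 2.38% and 2.32% of the DKO reads, against 3.44% and 3.46% of the WT reads. CDC25B, a phosphatase that primes CDK1 for mitosis, had 24.7 and 25.3 CPM in DKO, against 40.4 and 35.7 CPM in WT (-0.61 ± 0.06), 0.01 above that median. MYBL2 stood at -0.11 from it. AURKA, the spindle pole kinase, had 39.9 and 38.8 CPM in DKO, against 51 and 54.2 CPM in WT (-0.42 ± 0.05, adjusted p = 1.24e-11). UBE2C, the first ubiquitin-conjugating enzyme of the anaphase-promoting complex, had 19.7 and 18.3 CPM in DKO, against 24.9 and 25.4 CPM in WT (-0.4 ± 0.07, adjusted p = 1.3e-07). TPX2, which activates AURKA on the spindle, had 167 CPM in each DKO library, against 189 and 197 CPM in WT (-0.21 ± 0.05, adjusted p = 8.64e-05). AURKA, UBE2C and TPX2 thus fell less than the middle of their chromosome, by 0.2, 0.21 and 0.41, and 76.9%, 78.3% and 89.4% of its tested genes had a lower value. These distances are descriptions and were not tested.

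**Figure D4:**
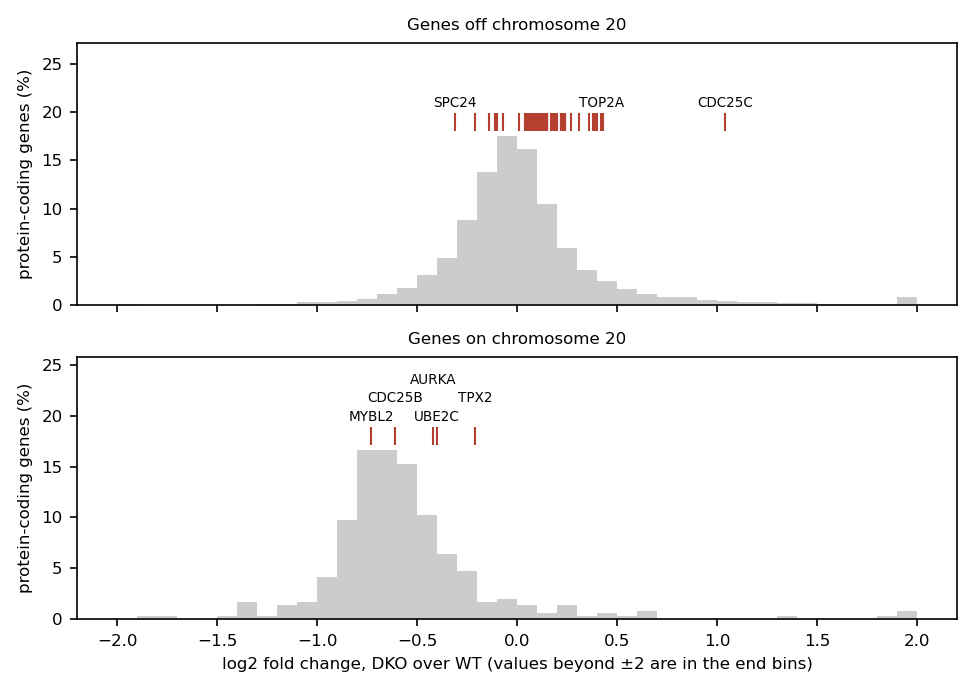
Distribution of log2 fold changes, DKO over WT, of tested protein-coding genes off chromosome 20 (top, 12818 genes) and on it (bottom, 360 genes), as percent of genes per bin, with red ticks for the mitotic genes. The mitotic genes lie to the right of the centre in the top panel (median 0.14 against -0.02), and in the bottom panel MYBL2 and CDC25B sit near the centre with AURKA, UBE2C and TPX2 to its right.

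Genes with related tasks outside the set did not all share this lean, when chromosome 20 was left out. Among 39 tested further genes of the spindle, mitotic entry and cytokinesis, 12 rose and 4 fell (median 0.05). NEK2, a centrosome kinase, had 13.2 and 12.8 CPM in DKO, against 9.56 and 10.3 CPM in WT (0.38 ± 0.09, adjusted p = 7.14e-05), and TROAP had 9.77 and 10.8 CPM in DKO, against 8.21 and 7.75 CPM in WT (0.36 ± 0.09, adjusted p = 0.000477). Of 26 further kinetochore and centromere genes, 1 rose and 8 fell (median -0.05). CENPM fell by 0.31 on the log2 scale (adjusted p = 9.21e-05) and ZWINT by 0.28 (adjusted p = 0.00539), while CENPC, which anchors the kinetochore to centromeric chromatin, rose by 0.24 ± 0.05 (adjusted p = 3.89e-06). Of 15 subunits and regulators of the anaphase-promoting complex, 7 fell and none rose (median -0.12), with ANAPC16 at -0.34 ± 0.06 and ANAPC11 at -0.31 ± 0.08. These shares stand against 20.8% higher and 23.4% lower among all protein-coding genes off chromosome 20.

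Of 11 tested DREAM and MuvB genes off chromosome 20, 4 fell (36.4%, against 23.4% of protein-coding genes) and 2 rose (18.2%, against 20.8%). TFDP1, the partner of E2F factors, had 68.6 and 69.9 CPM in DKO, against 91.6 and 83.1 CPM in WT (-0.34 ± 0.05, adjusted p = 1.89e-09), and E2F4, the main repressor E2F of DREAM, had 19.2 and 19.8 CPM in DKO, against 25.8 and 23.1 CPM in WT (-0.33 ± 0.07, adjusted p = 2.37e-05). E2F5, another E2F of the DREAM complex, rose instead, with 43.8 and 42.5 CPM in DKO, against 35 and 33.6 CPM in WT (0.33 ± 0.06, adjusted p = 2.57e-07). The pocket protein gene RBL2 (p130) rose by 0.21 ± 0.05 (adjusted p = 0.000424). Genes of S phase entry, another group tied to the cell cycle, fell in 13 of 20 cases off chromosome 20 and rose in none (median -0.16). TK1, a thymidine salvage enzyme, had 43.5 and 42.7 CPM in DKO, against 55 and 53.2 CPM in WT (-0.33 ± 0.05), and the licensing factor CDT1 was at -0.3 ± 0.07. With WT replicate 1 left out, the counts over all chromosomes were none higher and none lower of the further spindle genes (12 and 5 with all libraries), none lower of the anaphase-promoting complex genes (7) and 4 lower of the S phase entry genes (16). With WT replicate 2 left out they were 6 and 1, 2, and 8. The further kinetochore genes called lower were 10 over all chromosomes, and 2 without WT replicate 1, 3 without WT replicate 2 and 6 without DKO replicate 2. For the DREAM and MuvB genes, 5 were lower and 2 higher over all chromosomes, 2 and 1 without WT replicate 1, and 3 and 1 without WT replicate 2. Without DKO replicate 2, 4 genes of the anaphase-promoting complex were lower. Calls also became fewer among all protein-coding genes off chromosome 20, of which 4.08% were lower without WT replicate 1 and 8.7% without WT replicate 2, against 23.4% with all libraries.

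**Figure D5:**
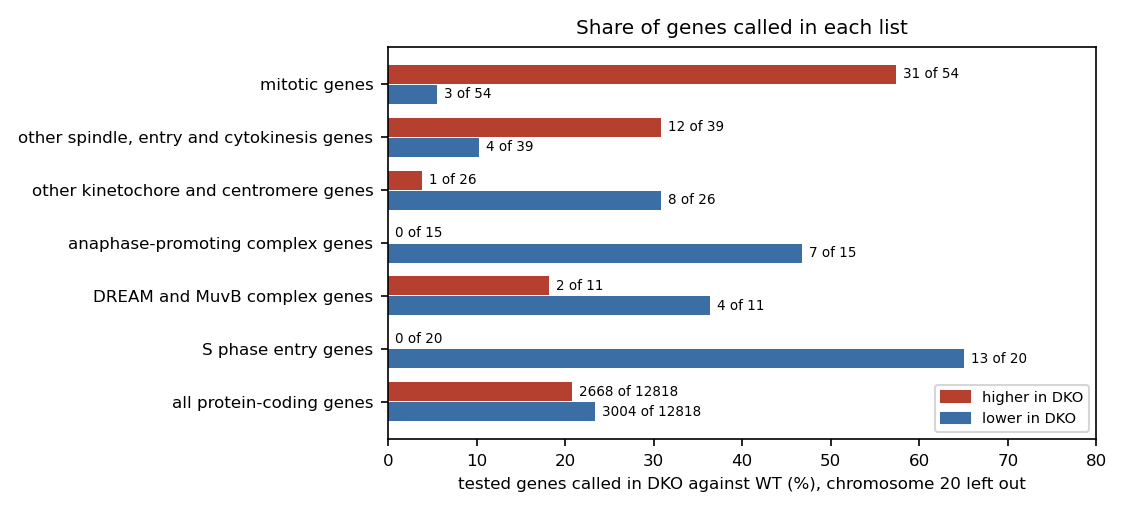
Share of tested genes called higher (red) or lower (blue) in DKO against WT for the mitotic genes, 5 lists of related genes and all protein-coding genes, with chromosome 20 left out and the counts beside each bar. The mitotic genes have 57.4% higher and 5.56% lower, and the S phase entry genes 65% lower and none higher.

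Across the genome longer genes tended to have higher fold changes, a relation hardly seen among the mitotic genes. Spearman's rho between genomic span and log2 fold change was 0.26 over the 12818 protein-coding genes off chromosome 20 and 0.04 over the 54 mitotic genes, as descriptions across genes that share libraries and are not independent. The 18 shortest (4.22 to 17.8 kb), the 18 middle (18.4 to 43.5 kb) and the 18 longest (44.3 to 131 kb) mitotic genes had median log2 fold changes of 0.15, 0.13 and 0.14. RefSeq spans of 28 of the 60 genes overlap another gene, in 11 cases a protein-coding one. Of 9 protein-coding neighbours that were tested, 1 was called, NOSTRIN over SPC25 (0.33, adjusted p = 0.0246), at 4 and 5.08 CPM in DKO and 3.36 and 3.9 CPM in WT. The non-coding KIF23-AS1, which shares 681 bases with KIF23, was called lower (-0.3, adjusted p = 0.043), at 3.44 and 3.08 CPM in DKO and 4.15 and 3.9 CPM in WT.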

How the data were processed

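Nascent RNA of HCT116 cells was sequenced in 2 DKO and 2 WT libraries, grouped by their titles. The authors deposited a file of unnormalized counts for each library, with Ensembl identifiers. The submitters' processing notes name STAR (2.7.3a), featureCounts (1.6) and hg38. Libraries were stranded per the labels' protocols, but how strand, exons and shared reads were set in counting is not given there, so reads of overlapping genes cannot be told apart and levels are not compared between genes. With no spike-in used here, every value is a share of its library.

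Symbols were found for 42058 of 60656 IDs in a gene name table and spans for 40553 in RefSeq (GRCh38.p14), by symbol or by a synonym of 1 gene only. Genes kept by filterByExpr (minimum count 10, minimum total 15) were scaled by TMM (factors 0.992 to 1.005) and tested with the edgeR quasi-likelihood F statistic (edgeR 4.0.16, R 4.3.3). Calls needed an adjusted p under 0.05. Standard errors are the absolute log2 fold change over the square root of F. Replicates of a group differed by more than sampling noise (chi-square per degree of freedom 5.02 in DKO and 4.3 in WT), so none was treated as a library deposited more than once, though this spread may come from library preparation.

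The mitotic genes, their roles and the further lists were chosen with earlier results of these data known, so no p over a list is given. The rule for values per library took TOP2A, the chromosome 20 genes, the 8 largest called rises, the called falls, and the highest and lowest gene of each role, and some further genes were added after their values were seen. Promoter windows came from RefSeq. Alternatives included DESeq2 1.42.0 and voom of limma 3.58.1. Figures were drawn with matplotlib 3.10.9.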

Additional observations from a re-analysis of the deposited data

How the results depend on the processing

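With TMM and all libraries, 3632 genes were higher and 4025 lower over the whole table, and 31 mitotic genes were higher and 8 lower. With no filter beyond 1 read these were 1640 and 1655 genes and 13 mitotic genes higher, and 33584 rather than 19103 features were tested. The Wald test of DESeq2 gave 2524 genes lower. Without chromosome 20 genes 3 mitotic genes were lower, as the other 5 were then not tested. Leaving out 1 library gave 1023 to 3127 genes higher, 928 to 3443 lower, 8 to 25 mitotic genes higher and 4 to 8 lower. The lone library left in a group is then assumed to vary like the other group.

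The median log2 fold change of mitotic genes off chromosome 20 was 0.14 with total counts, with no filter and without chromosome 20 genes, 0.15 with DESeq2 size factors, the DESeq2 Wald test and at least 50 reads in 2 libraries, 0.16 among protein-coding genes only and 0.18 with upper quartile factors, which moved the median of all genes from -0.01 to 0.03. It was 0.14 to 0.15 with a library left out. On chromosome 20 the median was -0.42, and -0.46 to -0.39 with a library left out. With upper quartile factors 37 mitotic genes off chromosome 20 were higher and 2 lower.

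The labels name no batch that would pair the libraries. Deviations of same-numbered libraries correlated at r = -0.0104 over 10036 genes, so no pairing was seen in these counts. Whether same-numbered libraries were prepared together cannot be told from this. With the replicate block 29 mitotic genes were higher, and KIF14 and KIFC1 were no longer called. In 200-base windows TTTGAA was found for 68.6% and CCAAT for 76.5% of 51 mitotic genes, against 9.58% and 33.9% of protein-coding genes. These windows leave out the bases furthest upstream, and both TTTGAA matches of TOP2A began there.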
